A study of Drosophila melanogaster with 18 samples.

Results

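Aminoacyl-tRNA synthetase genes of Drosophila melanogaster are described here across input RNA and ac4C peaks of whole larvae. The members were taken by name, as every gene listed as an amino acid code followed by RS, with or without the suffix -m of mitochondrial enzymes. The rule found 35 of the 12301 genes in the table of levels, 20 for cytosolic and 15 for mitochondrial enzymes. The rule uses names and no measured value.

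Aminoacyl-tRNA synthetases join each amino acid to its own tRNA, and so supply the charged tRNAs that ribosomes read against codons. They fall into class I and class II by the fold of their catalytic domain. Cytosol and mitochondria have separate protein synthesis, and many amino acids have 1 nuclear gene for each compartment, the mitochondrial enzyme being imported. In mammals a group of cytosolic enzymes is held in a multisynthetase complex by the scaffold proteins AIMP1, AIMP2 and AIMP3.

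The larvae were whole third-instar animals with the driver Dats-GAL4, which is da-GAL4 with tub-GAL80ts and acts through the whole body once warmed. The control carried the driver alone (Dats-GAL4/+). The second genotype added UAS-NAT10-RNAi, against the acetyltransferase that makes N4-acetylcytidine (ac4C) in RNA. The last added UAS-NAT10-RNAi and Xrp1-RNAi, the latter against a stress-induced bZIP transcription factor. Eggs laid over 24 h at 18 °C were raised to the first instar and then kept at 30 °C. Control larvae were taken at 72 h and NAT10 RNAi larvae at 120 h, so genotype and harvest time cannot be told apart. The labels give no harvest time for the last genotype. Each genotype had 3 biological replicates of 40 larvae, each with an input and an ac4C-IP library.

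Input libraries held 15518179 to 24272099 reads in genes. Replicate 1 with both constructs stood apart from its group: its reads differed from the others by a chi-square of 8.15 and 11.6 per degree of freedom, where all other pairs of replicates gave 1.41 to 3.95. The NAT10 transcript (l(1)G0020) was not lower in the RNAi libraries, with a control range of 4.97 to 5.46 FPKM (fragments per kilobase of gene, scaled to library size), a range of 5.22 to 5.93 under the label NAT10 RNAi and a range of 6.02 to 6.18 under the label of both constructs. The groups are therefore named by their labels. Xrp1 stood at 208 to 214, 384.6 to 386.5 and 40.4 to 43.9 FPKM in the same order. Marker lists of other tissues and of stage moved with genotype. The summed FPKM of 12 third-instar genes (larval serum and glue proteins) was 39838 to 44043 in control, 12122 to 12297 with NAT10 RNAi and 15251 to 16582 with both constructs. That of 14 muscle genes was 6055 to 6272, 12614 to 12813 and 9887 to 10156, and that of 10 imaginal disc genes 186 to 190, 136 to 138 and 141 to 153. Most of the first sum in control was glue gene RNA, with Sgs4 at 18693 FPKM on average against 2735 with both constructs, while the serum protein gene Lsp1alpha went the other way (1102 against 1767). Much of the disc sum was hth (95.8 against 64.6). No marker was at 0 in all libraries of a genotype, and their part in the results below was not tested. In whole animals fewer cells of a type and less RNA per cell cannot be told apart.

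The 35 genes cover all 20 amino acids. For 15 amino acids a cytosolic and a mitochondrial gene were listed. For Gln, Gly, His, Lys and Thr there was only a gene without the suffix. Those of GlyRS, HisRS, LysRS and ThrRS each have 2 annotated coding starts, as do GluProRS and AspRS-m. In animals the genes for GlyRS and LysRS are known to make both a cytosolic and a mitochondrial enzyme, and mitochondrial Gln-tRNA is made by amidation of Glu-tRNA. GluProRS charges Glu and Pro with 1 protein, and alpha-PheRS and beta-PheRS are the subunits of 1 cytosolic enzyme. Class I held 18 genes and class II 16, and GluProRS has a domain of each. Homologues of 8 enzymes (ArgRS, AspRS, GlnRS, GluProRS, IleRS, LeuRS, LysRS and MetRS) belong to the mammalian complex. The genes lay on all major arms, with 10 on 3L, 8 on 2R, 7 on 3R, 6 on 2L and 4 on X. GluRS-m and TyrRS were the closest members, 171 bp apart on the minus strand of 3L.

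Some member genes share exon bases with another gene, and whether the counting used strand is not given in the sources used here. This held for 16 members, 15 of them with a gene on the opposite strand. It was longest in 6: AspRS (1448 bases with an antisense RNA), GluProRS (905 with an antisense RNA), SerRS-m (356 with Nagk), ArgRS-m (325 with mRpS9), CysRS-m (302 with CG13016) and HisRS (255 with Bx, on the same strand). AspRS also shares 154 bases with asRNA:CR43468 on the same strand and 127 with Nmda1 on the opposite strand. The values of all these members may hold reads of the partner.

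In control larvae the cytosolic enzymes stood well above the mitochondrial ones per length. Of the 20 cytosolic genes 18 had a mean over 5 FPKM, against 3 of the 15 mitochondrial genes. ThrRS (threonine) led with 32.7, 33.5 and 30.9 FPKM, followed by SerRS (serine) with 27.0, 28.4 and 27.2. HisRS and AspRS, for histidine and aspartate, came next at 20.3 ± 0.818 and 19.7 ± 0.513 (SD, n = 3), with overlapping libraries. The lowest cytosolic genes were the subunits beta-PheRS at 4.17 ± 0.325 and alpha-PheRS at 2.93 ± 0.503 FPKM (SD, n = 3).

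TrpRS-m, which charges mitochondrial tryptophan tRNA, was an exception among mitochondrial genes. Its 16.0, 15.0 and 15.2 FPKM in control ranked 5 of 35 members, above TrpRS, the cytosolic enzyme, at 14.2, 13.6 and 12.7. AspRS-m followed with 10.9, 10.7 and 10.2 FPKM. Together these genes made up 44.6% to 46.6% of the summed mitochondrial level in control. PheRS-m, for mitochondrial phenylalanine, stood at 6.85 ± 0.213 and CysRS-m at 4.76 ± 0.44 FPKM (SD, n = 3). The low end held AsnRS-m, ValRS-m, GluRS-m and MetRS-m, between 0.612 and 1.41 FPKM on average. MetRS-m, for mitochondrial methionine, was between 0.521 and 0.868 FPKM in all 9 libraries. It was the 1 member below the filter of 1 FPKM in 3 libraries and was not tested. Recovered reads ranged from 19 for GluRS-m to 2552 for ThrRS in a library, so the low mitochondrial genes carried the largest counting error.

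**Figure D1:**
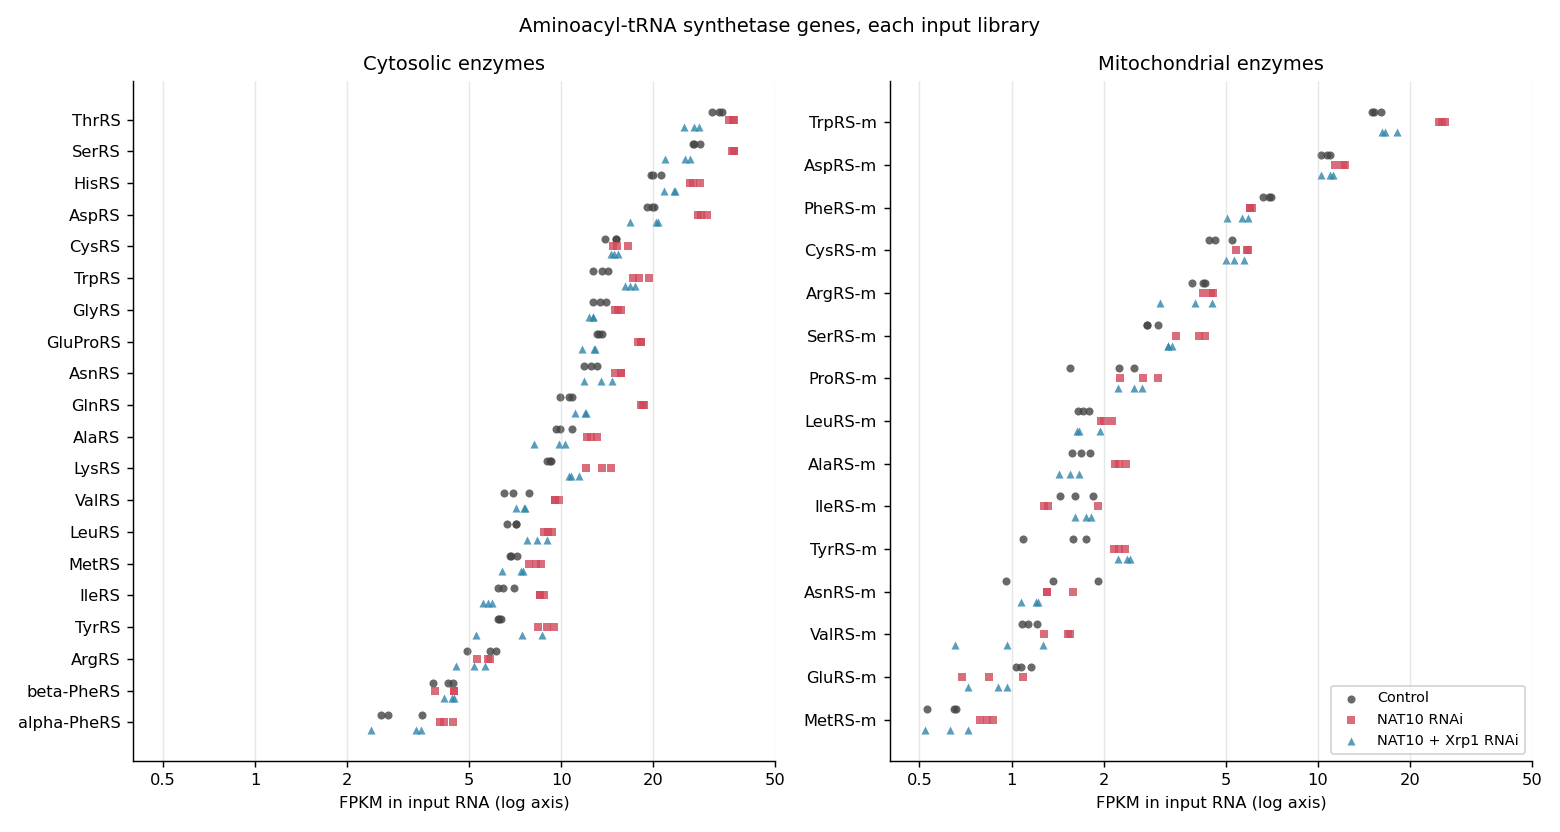
FPKM of each synthetase gene in input RNA (log axis), cytosolic enzymes on the left and mitochondrial enzymes on the right, with 1 point per library and 3 libraries per genotype. TrpRS-m and AspRS-m sit at 10 FPKM or above, while most mitochondrial genes lie below 5.

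Within an amino acid the ratio of the cytosolic to the mitochondrial gene spanned a wide range. Of 16 such pairs (GluProRS set against both GluRS-m and ProRS-m, and each PheRS subunit against PheRS-m), 13 had the cytosolic gene higher in control. The control ratio ran from 0.427 for alpha-PheRS over PheRS-m to 12.3 for GluProRS over GluRS-m, with a median of 4.25. The exceptions were the pairs of PheRS-m and of TrpRS-m, and both PheRS subunits stayed below PheRS-m in all 3 genotypes. The ratio of TrpRS to TrpRS-m was 0.886, 0.901 and 0.836 in the control libraries, 0.707, 0.66 and 0.784 in those labelled NAT10 RNAi, and 1.07, 0.927 and 0.975 with both constructs. These 3 sets of ratios did not overlap, and a ratio within a library does not depend on scaling between libraries. Separate sets were not particular to this pair. IleRS over IleRS-m had mean ratios of 4.05, 5.93 and 3.33 in the same order, and GluProRS over GluRS-m 12.3, 21.4 and 14.6, each without overlap. Those ratios were highest with NAT10 RNAi, where that of TrpRS was lowest.

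The comparison of larvae labelled NAT10 RNAi with control set larvae of different genotype and harvest time side by side, so a difference belongs to both together. Of the 20 cytosolic genes 17 were called higher and 0 lower (limma on log2(FPKM + 1), adjusted p under 0.05), where 47.3% of all 11557 tested genes were called higher and 18.9% lower. The uncalled genes were ArgRS, beta-PheRS and CysRS, at log2 fold changes of 0.00, 0.03 and 0.07. By edgeR and DESeq2 on recovered reads 0 cytosolic genes were lower as well. In limma all 20 log2 fold changes were above 0, and 16 of 20 after rescaling, where ArgRS, beta-PheRS, CysRS and ThrRS were below 0. The median log2 fold change of cytosolic members was 0.37, against 0.17 for all genes tested. After a rescaling of each library by its median ratio to the geometric mean profile, which brought the median of all genes to 0.01, 10 cytosolic genes were higher and 0 lower with a median of 0.18, beside 31.9% higher and 31.5% lower of all genes.

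GlnRS, which charges glutamine tRNA in the cytosol (BDGP6 3R:25263267-25265721, minus strand, a single exon), differed most. It stood at 10.8, 9.91 and 10.6 FPKM in control and at 18.5, 18.6 and 18.2 in libraries labelled NAT10 RNAi. Every library of the latter lay far above every control library, with a log2 fold change of 0.77 ± 0.05 (SE; limma adjusted p = 2.13e-07) and 0.58 after rescaling. AspRS rose from 19.1, 19.8 and 20.0 to 29.9, 28.0 and 28.5 FPKM, without overlap (log2 0.53 ± 0.07, SE; limma adjusted p = 6.34e-05; 0.34 after rescaling). Its exons share 1448 bases with an antisense RNA. LysRS (lysine; X:9606363-9608841) rose from 9.27, 9.20 and 8.95 to 12.1, 14.5 and 13.6 FPKM, with replicate 1 the lowest of the RNAi libraries (log2 0.50 ± 0.06, SE; limma adjusted p = 4.96e-05; 0.32 after rescaling).

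GlnRS, AspRS and LysRS all have homologues in the mammalian complex. Of the 8 genes of that list 7 rose, all but ArgRS, with a median log2 fold change of 0.38. Of the other 12 cytosolic genes 10 rose, with a median of 0.34. After rescaling 6 of 8 and 4 of 12 were called higher, with medians of 0.20 and 0.15. Of all tested genes 47.3% were called higher with a median of 0.17, and 31.9% after rescaling with a median of 0.01. The 4 of 12 lay near that rescaled share. The difference between the lists was not tested.

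The remaining cytosolic calls were graded. TyrRS, alpha-PheRS, GluProRS, HisRS, TrpRS, ValRS and SerRS lay between 0.39 and 0.45 on the log2 scale. IleRS and LeuRS were at 0.34 and 0.33, AlaRS and AsnRS at 0.29 and 0.28, and MetRS, GlyRS and ThrRS at 0.22, 0.19 and 0.15. The calls of AlaRS, AsnRS, GlyRS, MetRS, ThrRS, TyrRS and alpha-PheRS were lost on rescaling, where ThrRS turned to -0.04 (limma adjusted p = 0.343). The other 10 cytosolic calls, GlnRS among them, held under each of the 17 alternatives run, leaving out any library included. The call of ThrRS was also lost without control replicate 3 or without NAT10 RNAi replicate 3.

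Of 14 tested mitochondrial genes 6 were called higher and 1 lower in the same comparison, and 7 were not called. Beside these counts stand 47.3% higher and 18.9% lower of all tested genes. Over both compartments, 24 of 34 tested members were called, beside 66.2% of all genes. The libraries of the groups did not overlap for 25 members that were higher and 1 that was lower, beside 51.6% and 21.7% of all genes. By catalytic class, 10 of 17 tested class I genes rose, and 12 of 16 class II genes rose with 1 lower, beside the same 47.3% and 18.9%. The median log2 fold change of the mitochondrial genes was 0.17, the same as the median of all genes at 2 decimals. After rescaling 3 mitochondrial genes were higher and 2 lower, with a median of 0.04, beside 31.9% higher and 31.5% lower of all genes.

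TrpRS-m (3L:17849727-17852189, plus strand) accounted for the largest difference. Its 16.0, 15.0 and 15.2 FPKM in control compared with 25.3, 26.0 and 24.8 in libraries labelled NAT10 RNAi, again without overlap. The log2 fold change was 0.68 ± 0.05 (SE; limma adjusted p = 5.47e-07), and 0.49 after rescaling. It exceeded that of TrpRS, at 0.40 ± 0.06 (SE; limma adjusted p = 0.000104), and TrpRS-m was the 1 mitochondrial call that held under all 17 alternatives.

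TyrRS-m (tyrosine) rose from 1.74, 1.59 and 1.09 to 2.24, 2.35 and 2.16 FPKM (log2 0.40 ± 0.10, SE; limma adjusted p = 0.00447). SerRS-m (serine) rose from 2.77, 3.01 and 2.76 to 4.10, 4.27 and 3.45 FPKM (log2 0.36 ± 0.08, SE; limma adjusted p = 0.00177). In both genes the groups were separate, but DESeq2 on recovered reads did not call them (adjusted p = 0.0895 and 0.0602). AlaRS-m, CysRS-m and AspRS-m rose by 0.28, 0.22 and 0.15 on the log2 scale, and none of these calls held after rescaling. The calls of CysRS-m and AspRS-m were also lost without control replicate 3 and without NAT10 RNAi replicate 1 or 2, and that of CysRS-m without control replicate 2.

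Phenylalanine was the amino acid whose genes were called in opposite directions. PheRS-m fell from 6.61, 7.02 and 6.93 FPKM in control to 5.98, 6.10 and 5.99 in libraries labelled NAT10 RNAi. The change was -0.16 ± 0.06 on the log2 scale (SE; limma adjusted p = 0.0364), and -0.33 after rescaling (limma adjusted p = 0.000252). Without control replicate 2 or 3, or without any 1 of the NAT10 RNAi libraries, the call was lost, with limma adjusted p between 0.0688 and 0.103. The subunit alpha-PheRS rose from 2.71, 2.57 and 3.503 to 4.13, 4.43 and 4.01 FPKM (log2 0.41 ± 0.12, SE; limma adjusted p = 0.0116), while its partner beta-PheRS gave 3.81, 4.43 and 4.27 against 3.88, 4.45 and 4.46. On rescaling alpha-PheRS was no longer called (0.25; limma adjusted p = 0.0717). GluRS-m was called lower only after rescaling (-0.25; limma adjusted p = 0.0292), from 1.03, 1.07 and 1.16 to 0.688, 1.09 and 0.847 FPKM, with overlap.

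**Figure D2:**
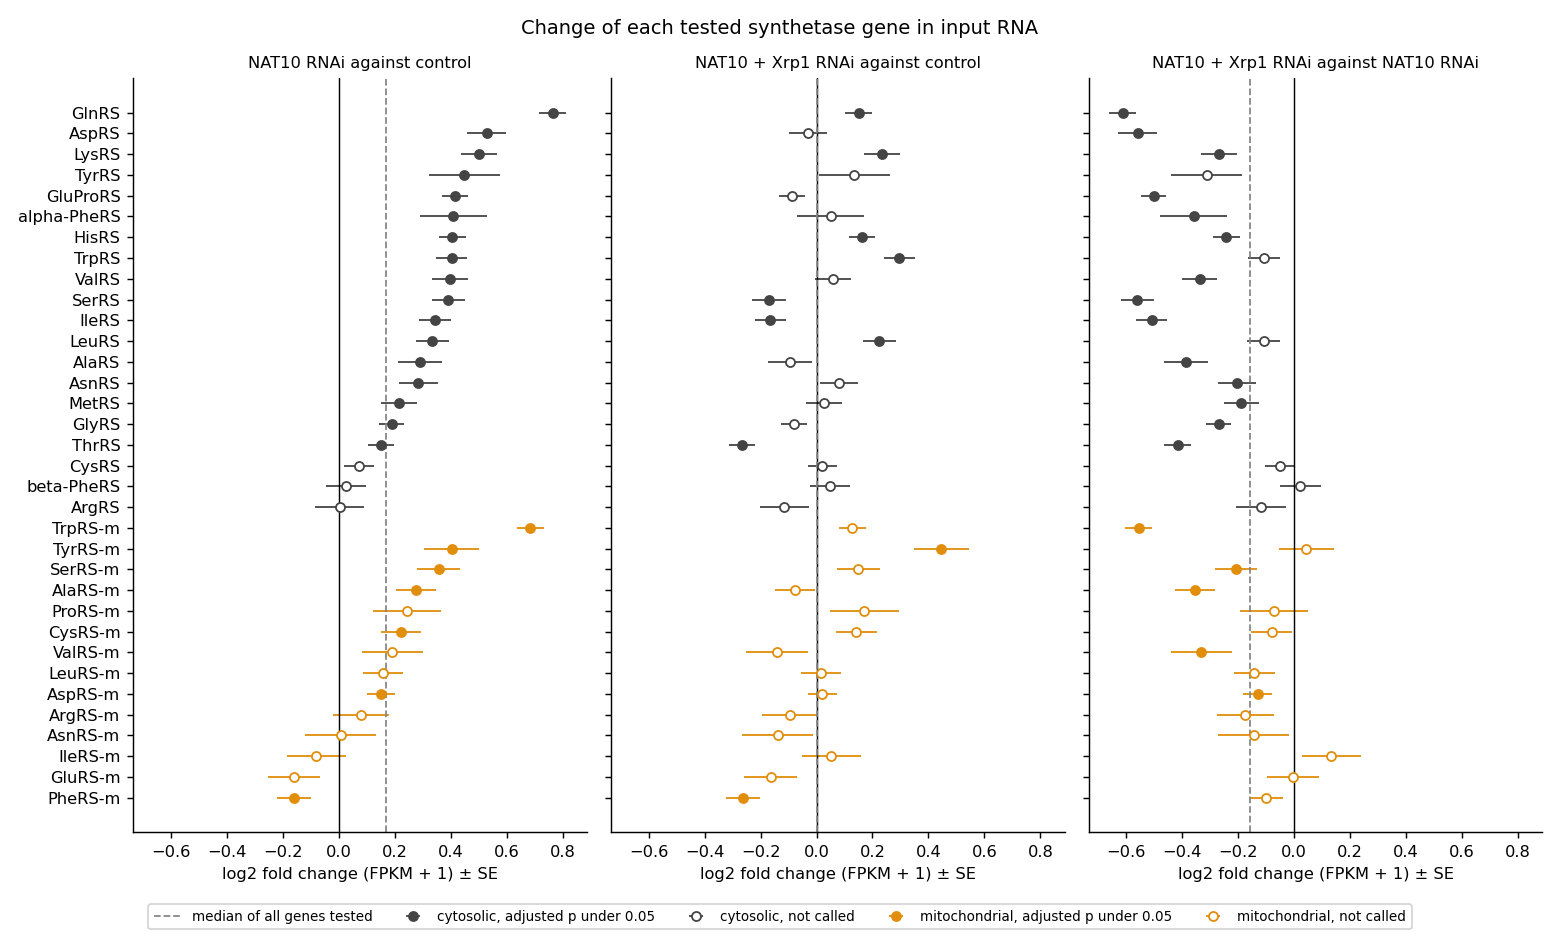
Log2 fold change of FPKM + 1 with its SE for the 34 tested synthetase genes in 3 comparisons of input RNA, with 3 libraries per genotype. Filled points passed an adjusted p of 0.05 and the dashed line is the median of all tested genes; GlnRS and TrpRS-m lie farthest out for NAT10 RNAi against control, at 0.77 and 0.68.

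Summed over genes, cytosolic FPKM was 242, 248 and 239.6 in the control libraries, 309, 316 and 316.5 in those labelled NAT10 RNAi, and 227, 252 and 252 with both constructs. The mitochondrial sum was 57.7, 57.8 and 56.9, then 73.1, 75.3 and 69.4, and then 56.6, 61.3 and 59.7. Both sums were thus higher in all NAT10 RNAi libraries than in any other library. After rescaling they still were, at means of 286 against 255 and 253 FPKM for cytosolic genes and 66.1 against 60.1 and 61.6 for mitochondrial genes. The ratio of the sums was 4.23 ± 0.0514 in control, 4.33 ± 0.201 with NAT10 RNAi and 4.11 ± 0.106 with both constructs (SD, n = 3), with overlap between libraries of different genotypes. TrpRS-m and AspRS-m, left out here after their values were seen, carried 50.7% to 52.0% of the mitochondrial sum with NAT10 RNAi. Without them the ratio was 7.60 to 7.87 in control, 8.51 to 9.50 with NAT10 RNAi and 7.53 to 7.89 with both constructs.

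**Figure D3:**
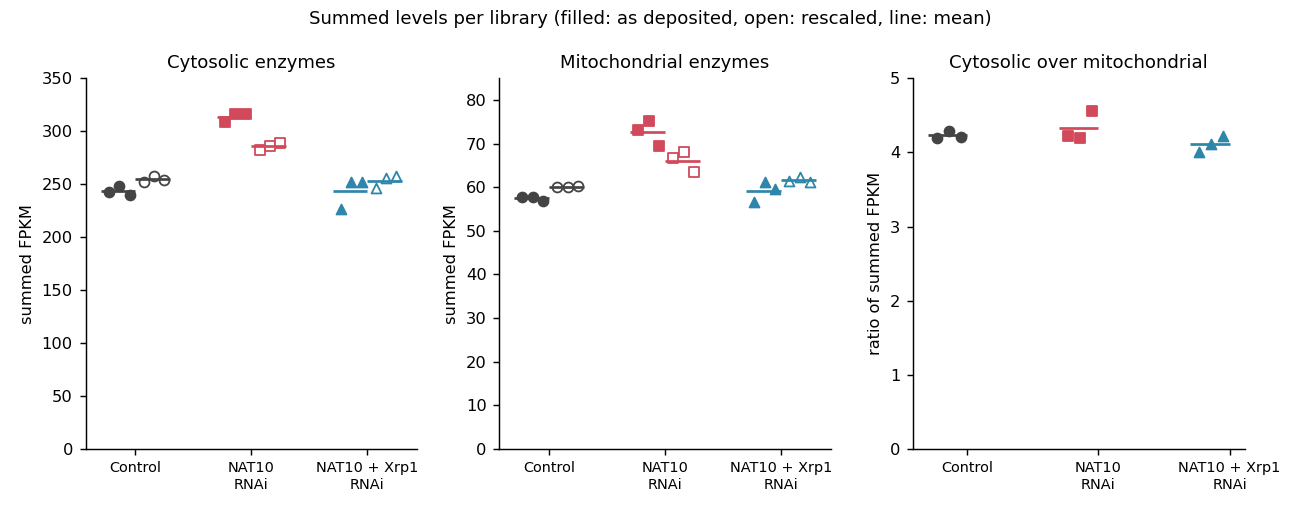
Summed FPKM of cytosolic and mitochondrial synthetase genes and their ratio in each of 9 input libraries, as deposited (filled) and rescaled by the median ratio (open), with the mean of 3 libraries as a line and axes from 0. The NAT10 RNAi libraries have the highest sums, while the ratio stays between 4.01 and 4.56.

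Larvae labelled NAT10 and Xrp1 RNAi, whose harvest time is not given, were next compared with control. Of 20 cytosolic genes 5 were higher and 3 lower, where 21.5% of all tested genes were called higher and 19.2% lower. Of 14 mitochondrial genes 1 was higher and 1 lower. The 10 calls among 34 members compare with 40.8% of all genes, and the 8 members higher and 6 lower without overlap with 25.3% and 24.4%. The medians were 0.04 and 0.02, against 0.00 for all genes, and rescaling left them at 0.03 and 0.01. Cytosolic shares of calls were thus near the background and mitochondrial ones below it.

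The cytosolic genes that rose were TrpRS, LysRS, LeuRS, HisRS and GlnRS. TrpRS stood at 14.2, 13.6 and 12.7 FPKM in control and at 17.4, 16.8 and 16.1 with both constructs (log2 0.30 ± 0.06, SE; limma adjusted p = 0.00214). LysRS rose from 9.27, 9.20 and 8.95 to 10.7, 11.5 and 10.6 (log2 0.23 ± 0.06, SE; limma adjusted p = 0.0145), a call lost without replicate 2 of both constructs (limma adjusted p = 0.052). LeuRS, for leucine, rose from 7.14, 7.12 and 6.67 to 7.71, 8.32 and 8.96 (log2 0.22 ± 0.06, SE; limma adjusted p = 0.0123). These 3 genes had no overlap between the groups, and HisRS and GlnRS had none either. HisRS and GlnRS were at 0.16 and 0.15 on the log2 scale, and both calls were lost without control replicate 3 or without replicate 2 or 3 of both constructs. That of HisRS was also lost without control replicate 1. That of GlnRS was also lost without control replicate 2, with only the compared genotypes, and by DESeq2.

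The cytosolic genes that fell were ThrRS, SerRS and IleRS. ThrRS went from 32.7, 33.5 and 30.9 to 25.1, 28.1 and 27.1 FPKM (log2 -0.27 ± 0.05, SE; limma adjusted p = 0.0013) and held under all 17 alternatives. SerRS went from 27.0, 28.4 and 27.2 to 21.8, 25.3 and 26.3 (log2 -0.17 ± 0.06, SE; limma adjusted p = 0.0455), and its change was -0.09 without replicate 1 of both constructs (limma adjusted p = 0.0696). IleRS, for isoleucine, went from 6.22, 7.03 and 6.46 to 5.75, 5.53 and 5.95 (log2 -0.17 ± 0.06, SE; limma adjusted p = 0.0369). When the NAT10 RNAi libraries were left out of the fit SerRS and IleRS were not called (limma adjusted p = 0.0898 and 0.085). Their calls were also lost on leaving out most single libraries, which left 1 cytosolic gene lower without control replicate 2 or 3, without any 1 of the NAT10 RNAi libraries, or without replicate 1 or 2 of both constructs. The higher cytosolic calls numbered 3 without control replicate 3, 2 without replicate 2 of both constructs and 3 without its replicate 3.

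TyrRS-m and PheRS-m were the mitochondrial calls. TyrRS-m rose from 1.74, 1.59 and 1.09 FPKM to 2.38, 2.23 and 2.43 (log2 0.45 ± 0.10, SE; limma adjusted p = 0.00505), close to its level with NAT10 RNAi alone. PheRS-m fell from 6.61, 7.02 and 6.93 to 5.06, 5.93 and 5.66 (log2 -0.26 ± 0.06, SE; limma adjusted p = 0.00588). Both held under all 17 alternatives. Without control replicate 1, and without replicate 1 of both constructs, 2 mitochondrial genes were called higher.

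The RNAi genotypes, labelled as NAT10 RNAi without and with Xrp1 RNAi, were then compared. Harvest was at 120 h for NAT10 RNAi and is not given for both constructs, so genotype and harvest time may differ together here too. Of 20 cytosolic genes 0 were higher and 14 lower with both constructs, where 15.2% of all tested genes were called higher and 46.1% lower. Of 14 mitochondrial genes 0 were higher and 5 lower. The 19 calls compare with 61.4% of all genes, and the 22 members lower without overlap with 49.9%. Neither edgeR nor DESeq2 called a member higher, and of the 3 members with a positive change none had an unadjusted limma p under 0.05 (the smallest was 0.237, for IleRS-m). This comparison shares its NAT10 RNAi libraries with the first and its other libraries with the second. The median log2 fold change was -0.29 for cytosolic and -0.14 for mitochondrial members, against -0.16 for all genes. After rescaling 8 cytosolic genes were lower and 1, CysRS, was higher (0.13; limma adjusted p = 0.0448), with 2 mitochondrial genes lower, beside 28.2% higher and 27.6% lower of all genes. The rescaled medians were -0.12 and 0.02.

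GlnRS again differed most, at 18.5, 18.6 and 18.2 FPKM with NAT10 RNAi and 11.1, 12.1 and 12.0 with both constructs (log2 -0.61 ± 0.05, SE; limma adjusted p = 1.82e-06; -0.43 after rescaling). SerRS went from 36.0, 36.7 and 36.5 to 21.8, 25.3 and 26.3 (log2 -0.56 ± 0.06, SE; limma adjusted p = 1.94e-05). AspRS went from 29.9, 28.0 and 28.5 to 16.8, 20.4 and 20.7 (log2 -0.56 ± 0.07, SE; limma adjusted p = 5.59e-05). In each of these genes replicate 1 with both constructs was the lowest of all 9 libraries or of its group, and the groups did not overlap.

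IleRS went from 8.51, 8.53 and 8.76 to 5.75, 5.53 and 5.95 FPKM (log2 -0.51 ± 0.06, SE; limma adjusted p = 2.16e-05). GluProRS went from 18.2, 18.2 and 17.8 to 11.7, 12.7 and 12.9 (log2 -0.50 ± 0.05, SE; limma adjusted p = 5.36e-06). Both groups of libraries were tight and separate. The other cytosolic calls were ThrRS (-0.42), AlaRS (-0.39), alpha-PheRS (-0.36), ValRS (-0.34), GlyRS (-0.27), LysRS (-0.27), HisRS (-0.24), AsnRS (-0.20) and MetRS (-0.19). TrpRS and LeuRS, at -0.11 each, were not called, nor was TyrRS (-0.31; limma adjusted p = 0.0524), whose libraries with both constructs spread over 5.27, 7.44 and 8.62 FPKM. AlaRS, AspRS, GlnRS, GluProRS, IleRS, SerRS, ThrRS and ValRS held under all 17 alternatives. The calls of alpha-PheRS, AsnRS and MetRS were lost without NAT10 RNAi replicate 2 or replicate 1 of both constructs, those of alpha-PheRS and AsnRS without NAT10 RNAi replicate 1, and that of MetRS without NAT10 RNAi replicate 3.

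Among mitochondrial genes TrpRS-m went from 25.3, 26.0 and 24.8 to 16.2, 18.1 and 16.5 FPKM (log2 -0.56 ± 0.05, SE; limma adjusted p = 3.95e-06; -0.37 after rescaling). AlaRS-m, for alanine, went from 2.24, 2.36 and 2.17 to 1.55, 1.66 and 1.43 (log2 -0.35 ± 0.07, SE; limma adjusted p = 0.00147). These genes had separate groups and held under all 17 alternatives. ValRS-m, for valine, went from 1.55, 1.53 and 1.28 to 0.653, 0.963 and 1.26 (log2 -0.33 ± 0.11, SE; limma adjusted p = 0.0233). Its nearest libraries almost touched, and the call was lost on rescaling (limma adjusted p = 0.0886) and without NAT10 RNAi replicate 1 or 2 or replicate 1 of both constructs (0.0699 to 0.0755). SerRS-m and AspRS-m, at -0.21 and -0.13, were called only narrowly (limma adjusted p = 0.0351 and 0.0468). The count of lower mitochondrial genes was 2 without NAT10 RNAi replicate 1 or 2 and 3 without replicate 1 of both constructs.

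Genes that work next to the synthetases were read from lists, whose counts stand beside the shares of all genes, and several are near those shares. In the 3 comparisons the shares were 47.3% higher and 18.9% lower, 21.5% and 19.2%, and 15.2% and 46.1%. For counts after rescaling they were 31.9% and 31.5%, 21.2% and 20.5%, and 28.2% and 27.6%. Of 7 scaffold proteins and synthetase relatives 3 rose and 1 fell in NAT10 RNAi against control, 1 rose with both constructs against control, and 1 rose and 4 fell between the RNAi genotypes (2 and 2 after rescaling). AIMP1, a scaffold of the complex in mammals, was at 15.0 FPKM on average in control, 27.3 with NAT10 RNAi and 19.0 with both constructs (log2 0.83 ± 0.07 for NAT10 RNAi against control, SE; limma adjusted p = 3.83e-06). Its partners AIMP2 and AIMP3, at 0.14 and 0.12, were not called. Slimp, a fly relative of SerRS-m that does not charge tRNA, rose by 0.52 ± 0.13 (SE; limma adjusted p = 0.0053). GatA and GatB are subunits of the amidotransferase that makes mitochondrial Gln-tRNA, and GatA rose by 0.36 while GatB fell by 0.22.

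Of 10 tRNA modification genes 7 rose in NAT10 RNAi against control (3 higher and 1 lower after rescaling), 4 rose with both constructs against control and 4 fell between the RNAi genotypes (2 higher and 1 lower after rescaling). The tRNA ligase RtcB rose by 0.74 ± 0.09 (SE; limma adjusted p = 3.29e-05). Of 9 mitochondrial translation factors 6 rose in NAT10 RNAi against control (5 higher and 2 lower after rescaling), 2 rose with both constructs against control, and 1 rose and 4 fell between the RNAi genotypes (1 and 3 after rescaling). The elongation factors mEFTu1 and mEFTu2, which bring charged tRNA to the mitochondrial ribosome, rose by 0.72 ± 0.05 and 0.74 ± 0.07 (SE; limma adjusted p = 2.72e-07 and 7.47e-06). Of 7 cytosolic elongation factors 4 rose and 1 fell in NAT10 RNAi against control (2 and 2 after rescaling). With both constructs against control 1 rose. Between the RNAi genotypes 1 rose and 4 fell, a balance that turned to 3 higher and 1 lower after rescaling. In that list eEF1gamma rose by 0.46 and eEF1alpha2 fell by 0.27 on the log2 scale with NAT10 RNAi.

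The amino acid stress list covers the kinases, transcription factors and targets known to answer a shortage of charged tRNA or related stress. In NAT10 RNAi against control 5 of its 12 genes rose and 5 fell (4 and 5 after rescaling). The kinase Gcn2, which senses uncharged tRNA, rose by 0.64 ± 0.06 (SE; limma adjusted p = 5.2e-06). The fly ATF4, crc, rose by 0.24, where the median of all genes was 0.17. Asparagine synthetase AsnS, a target of ATF4 in mammals and no tRNA enzyme, fell by 1.54 ± 0.08 (SE; limma adjusted p = 4.84e-08). With both constructs against control 2 genes rose and 7 fell (3 and 7 after rescaling), and between the RNAi genotypes 2 rose and 7 fell (2 and 7 after rescaling). Xrp1 belongs to the list and is an RNAi target in the latter genotype.

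No synthetase gene was in the authors' deposited tables of differential genes, which list 1261 genes for NAT10 RNAi and 346 for both constructs. From the values, those tables hold genes with a log2 fold change of at least 1 in size, and no tested member reached that size here.

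ac4C peaks in the authors' deposited lists were assigned to genes by strand and exon overlap. There was 1 list per genotype, so a difference between lists has no replicate check, and listed fold enrichments describe each list on its own. Members held 124 of 31666 peaks in control, 114 of 31192 with NAT10 RNAi and 105 of 30887 with both constructs. Of the 34 tested members 33 had a peak in each list, where 83.3%, 81.9% and 81.3% of all tested genes had one. In all 3 lists a peak was found for 31 members, beside 72.6% of tested genes. The share with a peak also moved with level. In control it was 74.5% of tested genes at 0 to 5 FPKM and 86.6% at 5 to 10 FPKM. At 10 to 20 and 20 to 50 FPKM it was 90.3% and 89.8%. Members with a peak in these ranges were 13 of 13, 7 of 8, 10 of 10 and 4 of 4. The lowest range includes MetRS-m, a member that was not tested.

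Members without a peak differed by list. In control PheRS-m had none. With NAT10 RNAi TrpRS and MetRS-m had none. With both constructs TyrRS-m had none. GluProRS, whose counted length of 5453 bases is the largest of the family, had the most peaks in control, 9, with 6 and 9 in the other lists, and IleRS had 5, 9 and 7.

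Most member peaks lay in coding sequence. In control this was so for 110 peaks, with 4 in 5′ UTRs and 10 in 3′ UTRs. With NAT10 RNAi the counts were 104, 4 and 6, and with both constructs 95, 3 and 7. No such split was made for all listed peaks or for exon bases, so it is not shown to be particular to the members. The median fold enrichment of member peaks was 2.28, 2.04 and 2.07 in the lists of control, NAT10 RNAi and both constructs, against 2.22, 2.07 and 2.18 for each whole list. Members were therefore close to the ordinary peak in strength.

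Peaks of over 9-fold were listed in 3 lowly expressed mitochondrial genes and in the cytosolic IleRS. In control LeuRS-m, for mitochondrial leucine, held peaks of 16.6-fold (3L:4826001-4826264) and 11-fold, and IleRS-m 1 of 15.5-fold (3L:16103272-16103452), all in coding sequence. ValRS-m held control peaks of 10-fold and 10.4-fold. The list for both constructs held the highest value, a 25.3-fold peak at the end of IleRS (3L:22292479-22292810). Peaks overlapping it were listed at 4.21-fold in control and 2.05-fold with NAT10 RNAi. With NAT10 RNAi the highest peaks were in cytosolic genes, CysRS at 6.19-fold and GlyRS at 6.27-fold, the latter at the end of the coding sequence of GlyRS (3L:15097206-15097656), where the lists of control and both constructs gave 5.18-fold and 8.42-fold. Among the members that moved most in input RNA, GlnRS had peaks of 1.47-fold to 2.91-fold over the 3 lists. The strongest coding peak of TrpRS-m was listed at 3.65-fold, 4.71-fold and 4.46-fold.

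**Figure D4:**
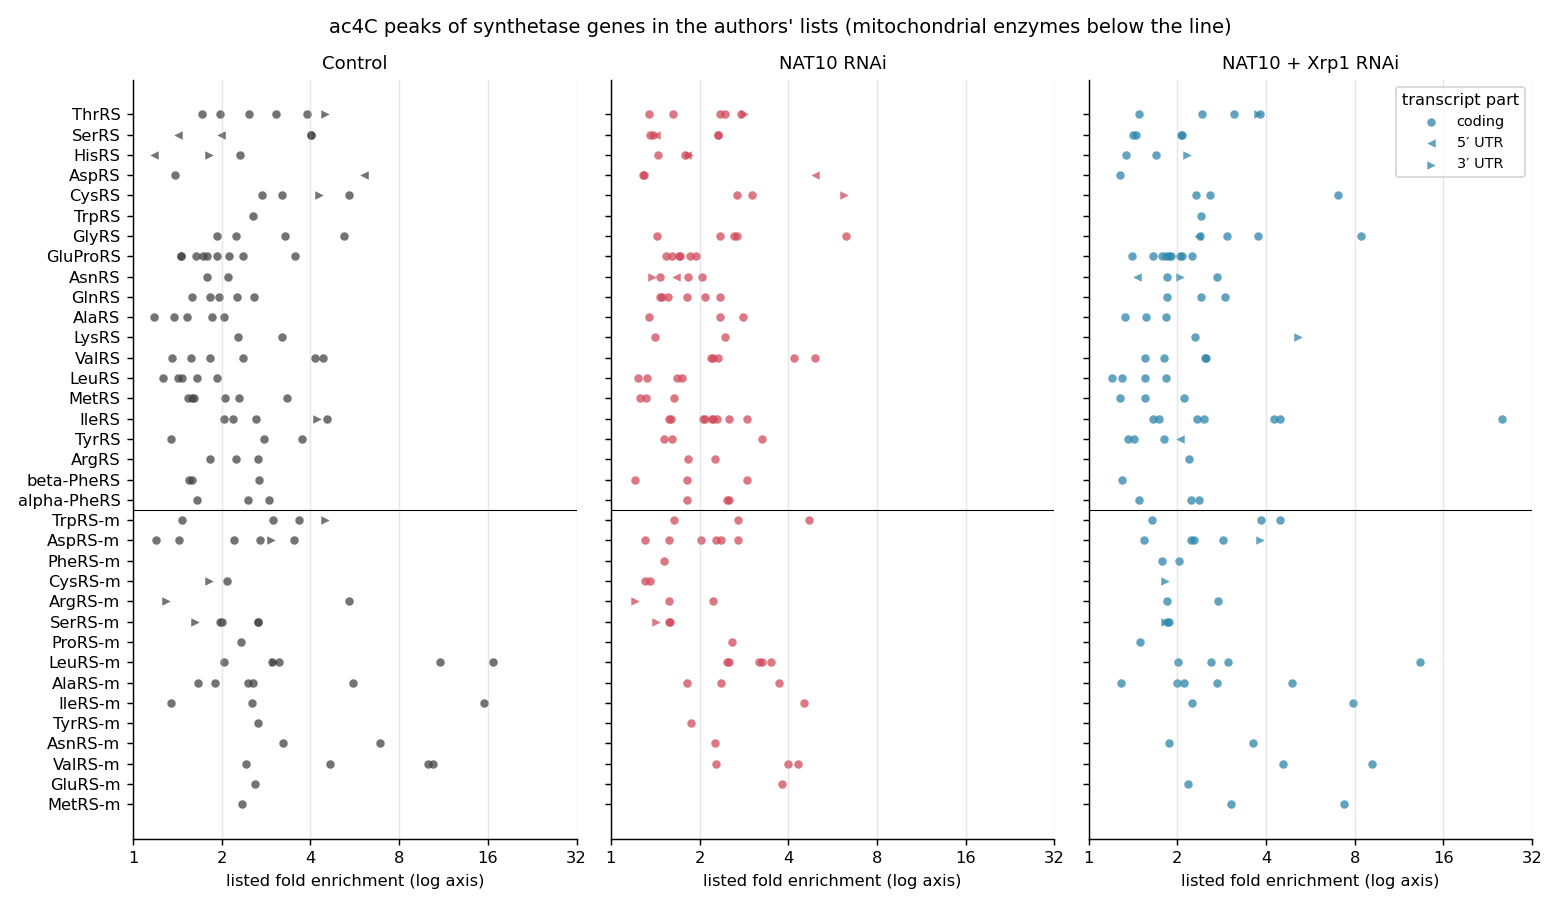
Fold enrichment (log axis) of each ac4C peak of the synthetase genes in the authors' list of each genotype, 1 point per peak, with its shape showing the transcript part and mitochondrial genes below the line. Most peaks lie between 1-fold and 4-fold, and the highest points belong to IleRS, LeuRS-m and IleRS-m.

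The authors' deposited tables of differential peaks held 4 member peaks in each comparison with control, all lower in the RNAi larvae. The whole tables hold 1336 peaks for NAT10 RNAi, 76.0% of them lower, and 1316 for both constructs, 53.8% of them lower. None of the member peaks had an FDR under 0.05 in the authors' deposited table, where 166 and 204 peaks did. Their unadjusted p-values in the authors' deposited table ran from 0.00197 to 0.0306. All lay in coding sequence.

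With NAT10 RNAi the peaks were in CysRS, TrpRS, GluProRS and MetRS-m. The CysRS peak, in the gene for cysteine, held 53, 46 and 46 IP reads and 2, 6 and 5 input reads in control, and 27, 43 and 39 IP reads and 12, 17 and 11 input reads with NAT10 RNAi. IP reads were lower and input reads higher in every RNAi library than in any control library, and the authors' deposited table gives a log2 change of -1.83 (FDR 0.069). In GluProRS IP reads were 24, 34 and 37 in control and 9, 34 and 17 with NAT10 RNAi, with input reads of 1, 2 and 5 against 7, 8 and 11 (-2.21 and FDR 0.104 in the authors' deposited table). There the IP libraries overlapped and the input libraries did not.

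In TrpRS the IP reads were 68, 62 and 55 against 51, 77 and 53, and the input reads 10, 18 and 10 against 23, 26 and 39 (-1.10 and FDR 0.126 in the authors' deposited table). Reads over the 3 IP libraries summed to 185 in control and 181 with NAT10 RNAi, while those over the input libraries summed to 38 and 88. The differential value thus went with more input reads and near equal IP reads in the peak. MetRS-m had 13, 18 and 28 IP reads against 11, 10 and 19, and 7, 2 and 1 input reads against 6, 12 and 6 (-1.57 and FDR 0.324 in the authors' deposited table).

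With both constructs the peaks were in CysRS, AlaRS, AlaRS-m and TyrRS-m. The same CysRS peak had 41, 50 and 31 IP reads and 7, 9 and 14 input reads (-1.43 and FDR 0.229 in the authors' deposited table), so that IP reads overlapped control and input reads did not. AlaRS had 67, 39 and 42 IP reads in control against 49, 40 and 24, and 9, 8 and 4 input reads against 10, 19 and 14 (-1.43 and FDR 0.106 in the authors' deposited table). In AlaRS-m the IP reads fell without overlap, from 29, 34 and 51 to 16, 26 and 18, and the input reads were 2, 6 and 7 against 11, 7 and 10 (-1.87 and FDR 0.0971 in the authors' deposited table). TyrRS-m had 53, 53 and 58 IP reads against 52, 69 and 49, and 10, 6 and 4 input reads against 10, 17 and 21 (-1.19 and FDR 0.182 in the authors' deposited table). Read counts here are not corrected for library depth. In all 8 entries the summed input reads in the peak were higher in the RNAi larvae than in control. From their values, the tables hold only peaks with a log2 change of about 1 or more in size. The authors' unadjusted p-values in them reach 0.05 at most. All 8 entries passed these thresholds as lower, so their counts were shaped by that choice and are no separate result about the members.

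**Figure D5:**
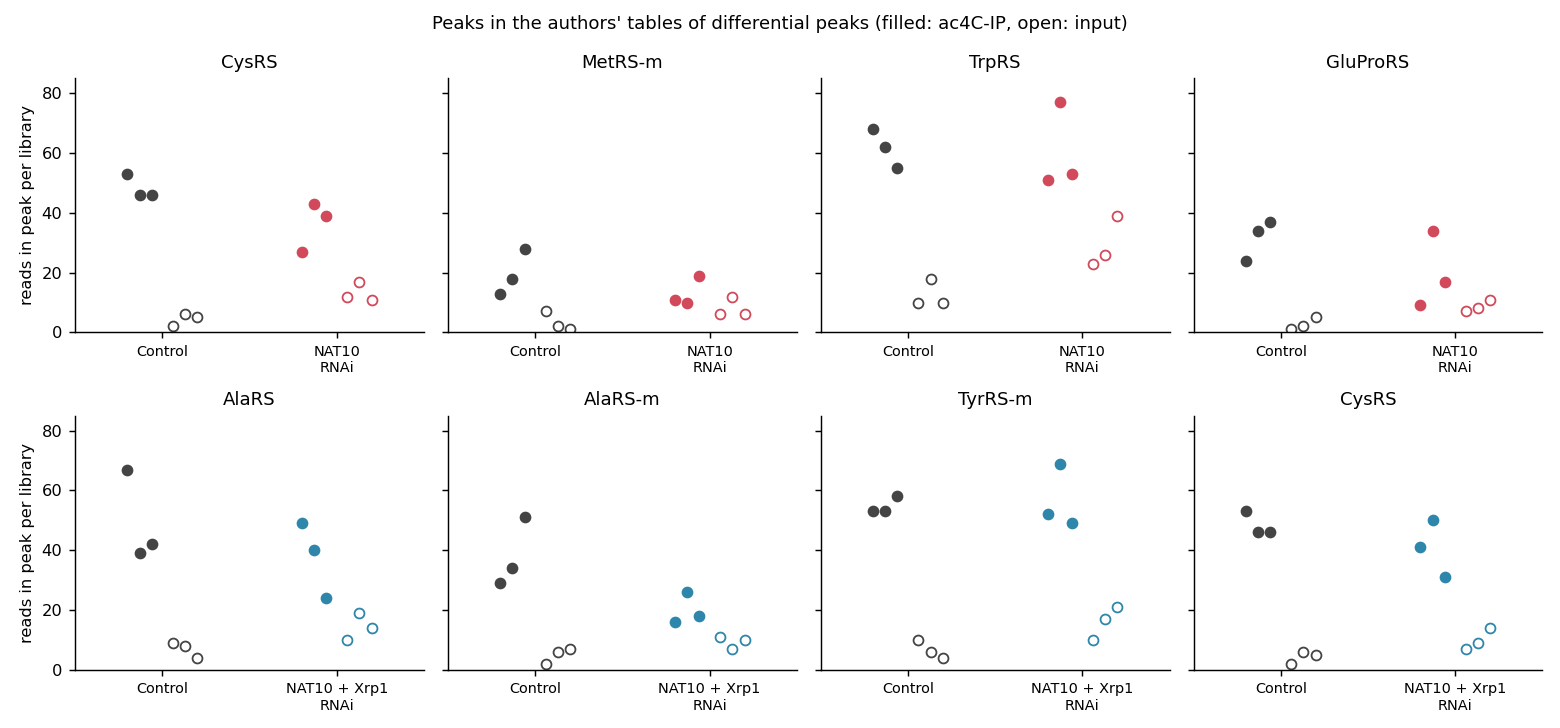
Reads in each of the 8 member peaks of the authors' tables of differential peaks, ac4C-IP (filled) and input (open), 3 libraries per genotype, with the comparison of NAT10 RNAi with control above and that of both constructs with control below. Summed over 3 libraries, input reads are higher in the RNAi larvae in all 8, which had passed the authors' thresholds as lower peaks. Single input libraries overlap in MetRS-m and share a value between groups in AlaRS-m and TyrRS-m. IP reads fall without overlap in CysRS with NAT10 RNAi and in AlaRS-m with both constructs.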

How the data were processed

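Poly(A) RNA in pieces of about 100 nt was sequenced before (input, 10%) and after capture with an ac4C antibody for 2 h, per the labels' protocols. Paired reads had 150 bases, and each molecule carried an identifier of 12 bases. The submitters' processing notes name HOMER 4.9.1, STAR 2.7.6a, deepTools 3.5.1, fastp 0.23.1, bedtools 2.30.0, the featureCounts program from Subread 1.5.1 and BDGP6 as build. Neither peak caller nor strand setting is named by any source used here. The values deposited per gene are FPKM for each library, per the file headers. Each deposited peak list has 1 ratio of IP to input per peak (fold enrichment) together with the authors' p-value and FDR. The deposited differential tables hold the authors' log2 change and p-values, with read counts per peak and library for peaks.

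FPKM times gene length gave whole reads (100% of values within 0.1), so depth could be recovered. The main test was limma (version 3.58.1, R 4.3.3, with its trend and robust options) on log2(FPKM + 1), which understates the change of low genes. The filter was 1 FPKM or more in 3 or more libraries. All 9 libraries entered 1 fit, two-sided, with Benjamini-Hochberg adjustment over all 11557 genes. Alternatives were pseudocounts of 0.1 and 5, no filter, rescaling, only the compared genotypes, a replicate block, edgeR 4.0.16, DESeq2 1.42.0 and leaving out each library. The script was tested on simulated data. Replicate numbers did not pair samples.

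The members and lists were chosen with earlier results of these data known. Values per library are given for members called at a log2 change of 0.5 or more, the 3 largest calls per direction, compartment and comparison, amino acids with opposite calls, and members of the differential peak tables. ThrRS and others outside this rule are also described by level.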

Additional observations from a re-analysis of the deposited data

How the results depend on the processing

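In NAT10 RNAi against control, the cytosolic genes called higher were 10 after rescaling and 11 by DESeq2, and 16 to 17 when 1 library was left out. Of all 11557 tested genes 3690 were higher after rescaling, 3931 by edgeR and 3393 by DESeq2, and 3645, 3660 and 3431 were lower. Leaving out 1 library, 5050 to 5715 of all genes were higher and 1956 to 2315 lower. The cytosolic median log2 fold change was 0.23 with a pseudocount of 5, 0.18 after rescaling, 0.21 by edgeR and 0.20 by DESeq2 (0.34 to 0.38 leaving out 1 library). The median of all genes was 0.10, 0.01, 0.02 and 0.01 in the same settings. Mitochondrial genes called higher were 3 after rescaling, 3 by edgeR and 1 by DESeq2 (4 to 6 leaving out 1 library). Those called lower were 2 after rescaling and 0 to 1 leaving out 1 library. The mitochondrial median was 0.0416, 0.068 and 0.054 by rescaling, edgeR and DESeq2 (0.16 to 0.21 leaving out 1 library).

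With both constructs against control, cytosolic genes called lower were 1 with only the compared genotypes and 1 to 3 leaving out 1 library. Those called higher were 2 to 7 leaving out 1 library. Mitochondrial genes called higher were 2 after rescaling and 1 to 2 leaving out 1 library. Of all 11557 tested genes 1922 were lower with only the compared genotypes, and 2455 were higher after rescaling. Leaving out 1 library, 2034 to 2677 of all genes were higher and 1740 to 2135 lower.

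Between the RNAi genotypes, 1 cytosolic gene was higher after rescaling, and 8 were lower after rescaling, 8 by edgeR and 8 by DESeq2 (11 to 16 leaving out 1 library). Of all 11557 tested genes 3256 were higher after rescaling, 3261 by edgeR and 3045 by DESeq2, and 3185, 3474 and 2836 were lower. With only the compared genotypes 5174 of all genes were lower. Leaving out 1 library, 1561 to 1800 of all genes were higher and 4750 to 5277 lower. The cytosolic median was -0.21 with a pseudocount of 5, -0.12 after rescaling, -0.13 by edgeR and -0.12 by DESeq2. That of all genes was -0.096, -2.76e-05, -0.0159 and -0.000576 in the same settings. Mitochondrial genes called lower were 2 after rescaling, 3 with only the compared genotypes, 3 by edgeR and 2 by DESeq2 (2 to 5 leaving out 1 library), and 0 to 1 were higher leaving out 1 library. The mitochondrial median changed sign, to 0.0158 after rescaling, 0.00588 by edgeR and 0.0189 by DESeq2. The cause of these shifts was not tested.

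The replicate block, which the labels do not tie to a batch (same-numbered libraries correlated at -0.07 to 0.08 in their deviations), left the cytosolic counts at 17 higher in NAT10 RNAi against control and 14 lower between the RNAi genotypes. With both constructs against control it gave 4 higher and 2 lower, with GlnRS and IleRS losing their calls (for IleRS, adjusted p = 0.0596 by limma). Of all tested genes the block called 5427 higher in NAT10 RNAi against control and 5279 lower between the RNAi genotypes. With both constructs against control it called 2391 higher and 2148 lower.

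Members with a peak of at least 4-fold were 7 cytosolic and 7 mitochondrial in control, 4 and 3 with NAT10 RNAi and 4 and 6 with both constructs. With an FDR under 0.001, mitochondrial members with a peak were 8 in each RNAi list. The share of all tested genes at these thresholds was not taken, so differences between lists may not be particular to the members. The median fold enrichment of the whole lists was 2.22 in control, 2.07 with NAT10 RNAi and 2.18 with both constructs. Member peaks found in both other lists were 45, 43 and 40 when at least 50% of each peak had to overlap, against 70, 76 and 71 for 1 base. The ratio of cytosolic to mitochondrial medians was 5.65, 6.27 and 4.84 in control, NAT10 RNAi and both constructs. Rescaled sums were 254.5 and 286 FPKM for cytosolic genes in control and NAT10 RNAi, and 60.1, 66.1 and 61.6 for mitochondrial genes in the 3 genotypes. Some members changed sign on rescaling, as ThrRS and AspRS-m did in NAT10 RNAi against control (AspRS-m from 0.15 to -0.03). Both were called higher in the main fit and were not called after rescaling. Depth limits the mitochondrial genes most, down to 19 reads in a library.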
